A study of Mus musculus with 32 samples.

Results

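The genes described here encode the subunits, activators and assembly factors of the proteasome. They were taken by symbol, as every protein-coding gene of the mouse GENCODE release M21 whose name is Psm followed by a letter from a to g and a number. Of 48 such genes, 47 were among the 20368 genes of the juvenile expression table, and Psma8 was one of these. Psmb11, the catalytic subunit of the thymus, was outside that table and lay between 0 and 0.150 TPM, the transcript abundance scaled for length and library total, in the table of transcripts and in adult pools. RNA with a polyA tail was measured in germ cells of male C57BL/6J mice during the first wave of spermatogenesis, when successive stages of meiosis appear in step with age. Each juvenile library came from the testes of 1 mouse, with 3 mice at 8 days post-partum (dpp) and 5 mice at each of 10, 12, 14, 16 and 18 dpp. A separate set of 4 libraries held pachytene and diplotene spermatocytes of adult mice of 9 weeks, isolated by STA-PUT sedimentation at unit gravity, which separates cells by size. Each adult library was a pool of 6 mice, with an average purity of about 90% per the labels, and its table was scaled on its own, so adult levels are set beside juvenile levels with no test between them. TPM values keep no sequencing depth, so no counting error could be attached to them. For low genes, how much of the spread between mice is counting error is thus unknown.

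Proteasomes degrade proteins that carry chains of ubiquitin. The core particle is a barrel in which outer rings of alpha subunits gate the entry and inner rings of beta subunits hold the catalytic sites. A regulatory particle caps the barrel, its base of ATPases unfolding and threading the substrate while its lid removes ubiquitin, and other activators can bind in its place. In spermatocytes and spermatids the alpha subunit Psma8 takes the place of its paralog Psma7, and the activator Psme4 is known from the degradation of acetylated histones when chromatin is rebuilt in sperm development.

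The labels were first set against marker genes, summed as TPM over each list. The 6 markers of pachytene spermatocytes were led by Piwil1 at 8 and 10 dpp and by Ldhc later. They summed to 5.67 TPM at 8 dpp, 2891 at 18 dpp and 7989 in adult pools. Of the 5 in the juvenile gene table, all 5 rose from 8 to 18 dpp (limma, adjusted p under 0.05). Leptotene and zygotene markers, led by Sycp3, went from 239.5 to 929 TPM with 5 of 5 rising, and stood at 713 TPM in adults. Spermatogonial markers, led by Dmrt1, went from 633 to 266 TPM with 6 of 6 falling, and to 10.4 TPM in adults. The order of these lists followed the order of meiotic stages across the ages. Spermatid markers summed to 2.50 TPM at 8 dpp and 4.20 at 18 dpp, with Prm1 and Prm2 at 0 from 10 to 16 dpp, but to 1023 TPM in the adult pools, where Tnp1 led at 273 TPM and no spermatid marker was at 0. None of the 6 was in the juvenile gene table.

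Somatic markers were present in the juvenile libraries, although per the labels the tubules had been washed to clear them of interstitial cells. The 8 Sertoli cell markers, led by Cldn11, summed to 1753 TPM at 8 dpp, 807 at 18 dpp and 55.2 in adults, with 2 rising and 6 falling from 8 to 18 dpp. Peritubular markers, led by Acta2 in juveniles and Tagln in adults, summed to 1101, 741 and 7.76 TPM at 8 dpp, 18 dpp and in adults, with 0 of 5 rising and 1 falling. Leydig markers, led by Insl3, summed to 188, 267 and 234 TPM, and 3 of 6 rose. The other somatic lists were smaller or unsteady. The 6 macrophage and leukocyte markers, led by Lyz2 in juveniles and Csf1r in adults, summed to 33.7, 65.4 and 4.33 TPM. Of the 5 in the juvenile gene table, 4 rose. Red blood cell markers, led by Hbb-bs at 8 dpp, summed to 464, 308 and 6.77 TPM, with 0 of 5 past the limma threshold in either direction from 8 to 18 dpp, and Hbb-bs was at 0 in adults. Endothelial markers, led by Cdh5 in juveniles and Pecam1 in adults, summed to 53.6, 45.0 and 2.44 TPM, with 1 of 4 rising and 1 falling. The Sertoli sum was thus lower at the ages with more pachytene RNA, whereas the peritubular sum was 1436 TPM at 14 dpp and 1092 at 16 dpp before it was lower at 18 dpp. The part of somatic RNA in the changes of the proteasome genes was not tested. In bulk samples fewer cells of a type and less RNA per cell cannot be told apart.

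Mice 4 and 5 of 18 dpp stood apart from mice 1, 2 and 3. Pachytene markers summed to 3532, 3609.6, 3467, 1968 and 1879 TPM in mice 1 to 5, Sertoli markers to 712, 698, 727, 966 and 933 TPM, and peritubular markers to 586, 524, 554, 1006 and 1034 TPM. Both mice were thus low in pachytene RNA and high in somatic RNA for their age, and some of the results at 18 dpp are also given without them, a choice made once their values were known. The libraries of 8, 10 and 12 dpp carried 13 barcodes, and the later libraries reused all of them among 15. These earlier and later libraries are called barcode sets here, although the sample titles name no batch. The step from 12 to 14 dpp cannot be told apart from any difference between the sets. Libraries of the same age correlated with r between 0.947 and 0.984 over 53 pairs.

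Proteasome genes changed with age about as often as other genes. Among the 47 members, 33 differed among the 6 ages (limma moderated F test, adjusted p under 0.05 with Benjamini-Hochberg adjustment over all genes), beside 77.6% of all genes tested. From 8 to 18 dpp, 14 members rose (background 31.8% of all genes) and 18 fell (background 36.3%). The shares of members called were 29.8% and 38.3%, near the background, so the number of changes is not a result about these genes. Subunits of the same complex differed in direction. The median log2 change from 8 to 18 dpp was -0.09 for members and -0.09 for all genes, and members ranged from -1.33 (Psme1) to 4.17 (Psma8). Fold changes are on the log2(TPM + 1) scale, which understates the change of low genes, and values after ± are SD over mice or pools unless marked SE.

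The number of calls differed between steps, for members and for all genes alike. From 8 to 10 dpp limma called 0 members up (background 0.977%) and 0 down (background 0.226%), with 0 up and 3 down at an unadjusted p under 0.05. From 10 to 12 dpp 4 rose (background 12.0%), namely Psma8, Psmd7, Psmd12 and Psmd2 (the last not after median-of-ratios rescaling), and Psmc5 alone fell (background 9.39%). From 12 to 14 dpp Psma8 alone rose (background 0.157%), and limma called 0 down (background 0.0147%; 0 at an unadjusted p under 0.05). The next step, from 14 to 16 dpp, brought rises of Psma8, Psmc3, Psmc2 and Psmd8, 4 members in all (background 12.7%), while limma called 0 down (background 11.3%; 3 at an unadjusted p under 0.05). These rises numbered 2 to 6 when single mice were left out, and fewer than in the main fit when fitted within the barcode set. Most calls fell in the last step, from 16 to 18 dpp, where 11 members rose (background 23.4%) and 12 fell (background 30.6%). These were 23.4% and 25.5% of the members, not above the background, so their number is not a result about these genes. Without mice 4 and 5 of 18 dpp, the last step gave 9 rising and 20 falling (background 25.2% and 35.9%), and 18 against 8 dpp gave 11 and 21 (background 31.7% and 38.8%). Of the 32 members called from 8 to 18 dpp, all 32 kept their sign and 29 their call without these mice. Psma3, Psmd9 and Psmd12 lost theirs, and Psma6, Psmb7 and Psmc6 became called falls. Among those kept were Psma7, Psmc2, Psmc3, Psmd8, Psme1, Psme2 and Psmf1, with log2 changes of -0.93 for Psma7, 0.89 for Psmc2, 1.24 for Psmc3, 0.57 for Psmd8, -1.61 for Psme1, -1.23 for Psme2 and 0.80 for Psmf1. In the fit of all mice, 12 against 8 dpp, both ages of the first barcode set, gave 4 rising (background 13.0%) and 7 falling (background 10.0%). In the same fit 18 against 14 dpp, both ages of the other set, gave 10 rising (background 26.3%) and 18 falling (background 42.1%).

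How libraries were scaled moved the balance of these calls. Median-of-ratios rescaling shifted the median change of all genes from 8 to 18 dpp by 0.14 on the log2 scale and gave 19 rising (background 37.3%) and 12 falling members (background 29.4%), with Psma4 and Psmc1 changing sign, while quantile normalization shifted it by -0.17 and gave 10 and 24 (background 27.2% and 44.9%) with no called member changing sign. From 16 to 18 dpp the shift was 0.14 with rescaling, which gave 22 rising and 4 falling (background 30.4% and 17.8%), and quantile normalization gave 7 and 25 (background 22.2% and 36.6%). The calls of all genes thus shifted in the same direction as those of the members. Set against the median of all genes, 26 members were higher and 16 lower from 8 to 18 dpp under all 3 scalings, and 5 were on either side. Under all 3 scalings 10 members rose, namely Psma8, Psmc2, Psmc3, Psmd2, Psmd6, Psmd8, Psme4, Psmf1, Psmg1 and Psmg2. The 12 that fell under all 3 were Psma2, Psma7, Psmb1, Psmb2, Psmb10, Psmd3, Psmd5, Psmd10, Psme1, Psme2, Psme3 and Psmg4. For 16 to 18 dpp these numbers were 7 (Psma8, Psmc2, Psmc3, Psmd8, Psmd9, Psme4 and Psmf1) and 4 (Psma7, Psmb10, Psme1 and Psme2). For these counts under all 3 scalings the share of all genes was not computed, so they are not a result about these genes. This selection was made after the values were seen.

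**Figure D1:**
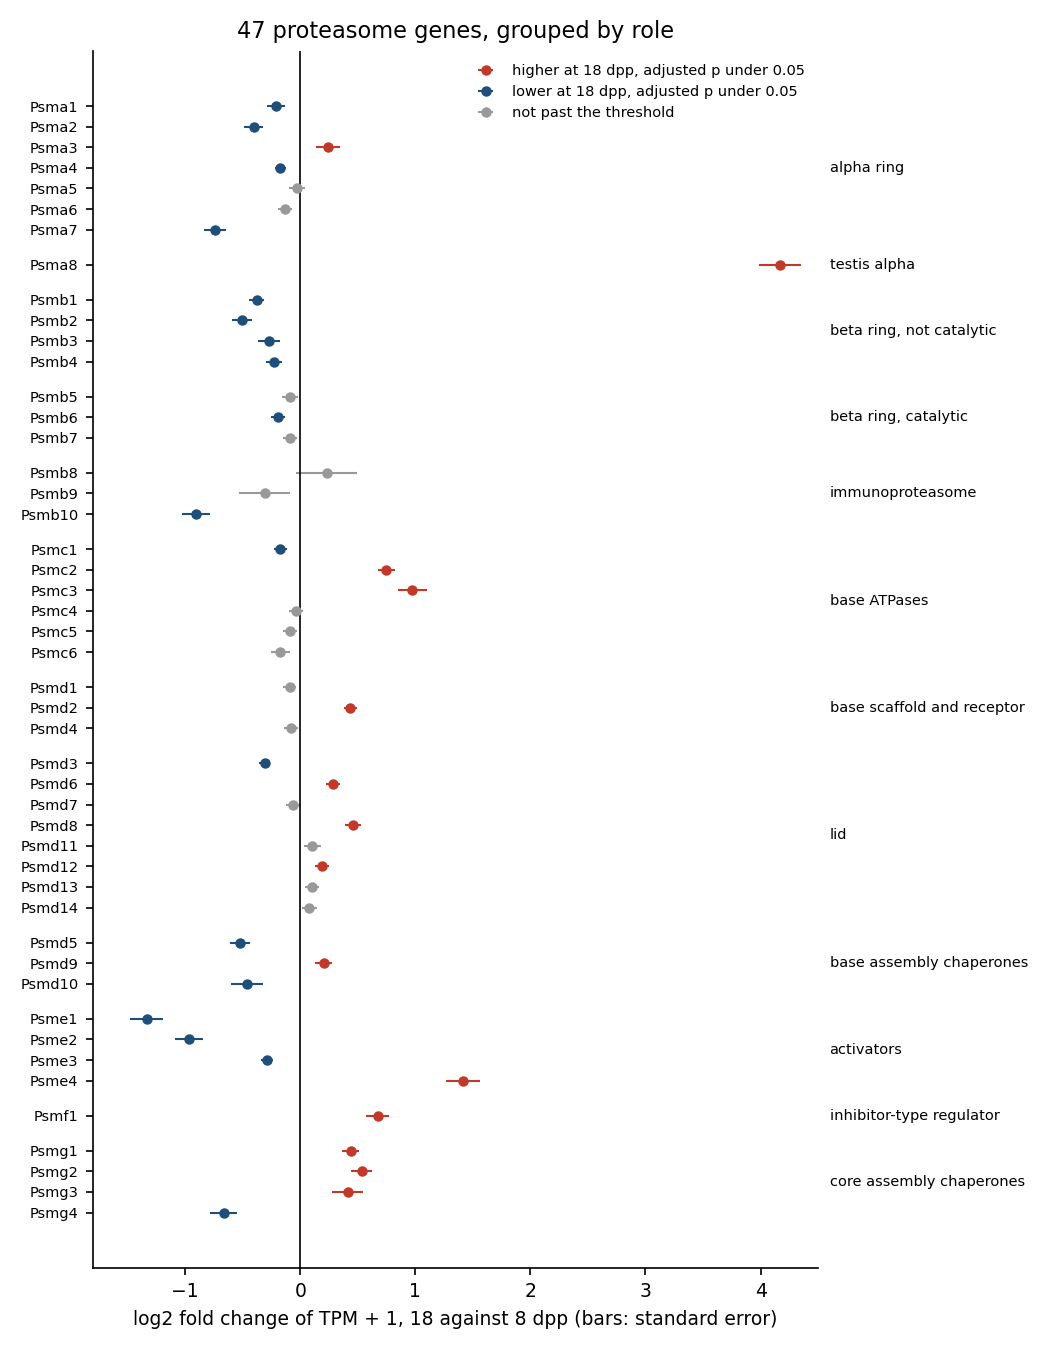
The x axis gives the log2 fold change of TPM + 1 from 8 dpp (n = 3 mice) to 18 dpp (n = 5) and each line is 1 of the 47 genes, with bars for the standard error and colours for genes past the adjusted p threshold of 0.05. Psma8 (4.17) and Psme4 (1.42) lie farthest to the right and Psme1 (-1.33) farthest to the left, and Psma4 and Psmc1, here left of 0, were right of 0 after median-of-ratios rescaling.

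Promoters were read for 39 of the 47 members, 42 windows in all, from RefSeq (GRCm38.p6), each with 250 bases before the start and 50 after it. Psma8, Psmb1, Psmb2, Psmb7, Psmc3, Psmd3, Psmd7 and Psmg2 had no entry. The 5 shown belong to members that moved far in opposite directions from 8 to 18 dpp, Psme4, Psmc2 and Psmd8 upward and Psma7 and Psme1 downward, and they and the motifs were chosen after the values were seen. Psma6, Psmc2 and Psme2 had 2 windows each, and of Psmc2 the first listed is shown, which lacks the TAACNG or CAACNG match of the other. Psme4 lies at chr11:30771525-30771824 on the plus strand, Psmc2 at chr5:21785025-21785324 on the plus strand, Psmd8 at chr7:29180624-29180923 on the minus strand, Psma7 at chr2:180042415-180042714 on the minus strand and Psme1 at chr14:55578244-55578543 on the plus strand. Each is given 5′ to 3′ on the strand of its gene, and capitals mark a match on either strand to TGACNNNGC, to CCAAT, to TGACGTCA, or to either TAACNG or CAACNG, where N is any base.
Psme4: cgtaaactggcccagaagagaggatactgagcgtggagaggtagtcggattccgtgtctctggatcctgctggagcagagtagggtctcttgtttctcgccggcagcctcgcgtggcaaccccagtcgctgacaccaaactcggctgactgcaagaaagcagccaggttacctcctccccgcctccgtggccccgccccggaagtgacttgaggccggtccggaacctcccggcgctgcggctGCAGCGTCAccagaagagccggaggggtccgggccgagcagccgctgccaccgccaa
Psmc2: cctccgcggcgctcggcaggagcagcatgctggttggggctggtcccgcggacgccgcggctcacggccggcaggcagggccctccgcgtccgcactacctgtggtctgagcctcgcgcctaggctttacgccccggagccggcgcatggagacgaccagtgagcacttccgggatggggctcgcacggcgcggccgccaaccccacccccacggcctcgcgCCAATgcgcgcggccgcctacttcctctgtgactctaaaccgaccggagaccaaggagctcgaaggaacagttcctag
Psmd8: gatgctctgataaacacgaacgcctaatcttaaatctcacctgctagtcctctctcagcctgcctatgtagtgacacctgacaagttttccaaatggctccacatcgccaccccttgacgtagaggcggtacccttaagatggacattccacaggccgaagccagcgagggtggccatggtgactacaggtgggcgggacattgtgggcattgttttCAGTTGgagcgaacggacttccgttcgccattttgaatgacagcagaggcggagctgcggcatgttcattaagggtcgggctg
Psma7: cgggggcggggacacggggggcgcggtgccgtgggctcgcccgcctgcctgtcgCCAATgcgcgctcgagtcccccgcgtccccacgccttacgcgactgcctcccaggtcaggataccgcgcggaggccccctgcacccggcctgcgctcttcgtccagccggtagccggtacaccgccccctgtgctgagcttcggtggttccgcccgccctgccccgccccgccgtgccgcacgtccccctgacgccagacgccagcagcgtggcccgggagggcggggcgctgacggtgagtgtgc
Psme1: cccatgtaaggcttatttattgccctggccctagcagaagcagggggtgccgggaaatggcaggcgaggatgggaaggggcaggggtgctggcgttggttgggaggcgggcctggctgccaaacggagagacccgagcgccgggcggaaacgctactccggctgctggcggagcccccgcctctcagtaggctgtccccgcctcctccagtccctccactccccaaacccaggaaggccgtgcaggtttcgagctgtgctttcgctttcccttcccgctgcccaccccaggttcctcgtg
The match in Psme4 was to TGACNNNGC on the reverse strand, its leftmost printed letter 7 bases before the start and its last past it, so that it runs across the start. By the same leftmost letter the matches were in Psmc2 to CCAAT 28 bases before the start, in Psmd8 to TAACNG or CAACNG on the reverse strand 33 bases before it, and in Psma7 to CCAAT 196 bases before it. The Psme1 window held none of the letters searched. TGACNNNGC, the core of the antioxidant response element, was in 6 (14.3%) of the 42 member windows and in 12.4% of all 32851 promoters. CCAAT, the box bound by NF-Y, was in 13 (31.0%) and 37.4%, and TAACNG or CAACNG, the core read by MYB proteins, in 19 (45.2%) and 49.7%. TGACGTCA, the cyclic AMP response element, was in 0 member windows and in 1.79% of all promoters. A match describes letters in a window and nothing about binding.

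The alpha subunits Psma7 and Psma8 share a position in the ring. Psma7 (ENSMUSG00000027566, chromosome 2, minus strand) is the form found in most tissues and Psma8 (ENSMUSG00000036743, chromosome 18, plus strand) the form of spermatocytes. Psma8 measured 11.8, 9.01 and 13.0 TPM in the 3 mice of 8 dpp and 9.77, 10.2, 10.1, 9.01 and 12.0 TPM in the 5 mice of 10 dpp. It measured 25.2, 31.1, 35.4, 21.2 and 23.3 TPM at 12 dpp and 50.01, 34.3, 51.9, 53.2 and 45.4 TPM at 14 dpp. Levels at 8 and 10 dpp overlapped, and every mouse of 12 dpp lay above them. In the mice of 16 dpp Psma8 was at 205, 129, 107, 95.8 and 134 TPM, and in those of 18 dpp at 226, 244, 235, 197 and 190.3 TPM. The adult pools held 341, 294, 352 and 277 TPM. All mice of 16 dpp lay above all of 14 dpp, whereas 3 of 5 mice of 18 dpp lay above all of 16 dpp. The log2 change was 1.31 ± 0.16 (SE), limma adjusted p = 8.57e-07 from 10 to 12 dpp, 0.77 ± 0.16 (SE), limma adjusted p = 0.0370 from 12 to 14 dpp, 1.46 ± 0.16 (SE), limma adjusted p = 9.51e-08 from 14 to 16 dpp and 0.75 ± 0.16 (SE), limma adjusted p = 3.34e-04 from 16 to 18 dpp. From 8 to 18 dpp it was 4.17 ± 0.18 (SE), limma adjusted p = 2.40e-16, with 5 of 5 mice above all mice of 8 dpp, and 4.28 without mice 4 and 5. No other member changed as much in either direction between these ages. Relative to the median of all genes this change was 4.26 to 4.30 over the 3 scalings. The call from 12 to 14 dpp was lost under either other scaling and without mouse 2 of 10 dpp, 1, 4 or 5 of 12 dpp, or 1, 3, 4 or 5 of 14 dpp (0 members called), 8 of the 28 mice. The 12 to 14 dpp step also lies between the barcode sets, whose part in it was not tested. Between ages of the same barcode set, in the fit of all mice, the change was 1.19 ± 0.18 (SE), limma adjusted p = 2.74e-05 from 8 to 12 dpp and 2.20 ± 0.16 (SE), limma adjusted p = 4.80e-12 from 14 to 18 dpp.

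Psma7 moved the other way and later. It measured 315, 334 and 314 TPM at 8 dpp, 331, 344, 324, 342 and 300.4 TPM at 14 dpp, 277, 309, 317, 301 and 269 TPM at 16 dpp and 168, 163, 172, 243 and 224 TPM at 18 dpp. In the adult pools it was at 16.7, 20.8, 24.2 and 18.3 TPM. Every mouse of 18 dpp lay below every mouse of 8 and of 16 dpp, with mice 4 and 5 the highest of their age, and the adult pools lay far below all mice.

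The log2 change of Psma7 was -0.62 ± 0.09 (SE), limma adjusted p = 3.10e-06 from 16 to 18 dpp and -0.74 ± 0.10 (SE), limma adjusted p = 1.91e-07 from 8 to 18 dpp, or -0.65 to -0.50 relative to the median of all genes over the 3 scalings. As a share of Psma7 and Psma8 together, a ratio that a common factor for all genes of a library leaves unchanged, Psma8 made up 3.59, 2.63 and 3.99% at 8 dpp and 2.93, 3.01, 2.93, 2.48 and 3.30% at 10 dpp. Its share was 6.00, 8.56, 9.91, 5.798 and 5.70% at 12 dpp, 13.1, 9.08, 13.8, 13.5 and 13.1% at 14 dpp and 42.5, 29.4, 25.2, 24.1 and 33.2% at 16 dpp. Psma8 was the smaller partner in every mouse up to 16 dpp. At 18 dpp the shares were 57.4, 59.9, 57.8, 44.8 and 46.0%, and in adult pools 95.3, 93.4, 93.6 and 93.8%. Mice 4 and 5 of 18 dpp were the only ones of that age in which Psma7 still exceeded Psma8. The share rose by 4.27 percentage points from 10 to 12 dpp, 18.4 from 14 to 16 dpp and 22.3 from 16 to 18 dpp, each with 5 of 5 mice above all mice of the earlier age (exact two-sided permutation test, adjusted p = 0.0476 for each over the 30 share tests; p = 0.00794, the smallest that 5 against 5 mice allow). From 12 to 14 dpp the difference was 5.33 points with 4 of 5 mice above all of 12 dpp (exact test, adjusted p = 0.0595). Mice of neighbouring ages from 10 dpp on thus overlapped at this step alone. Between 8 and 18 dpp it was 49.8 points, and 5 against 3 mice could not pass (exact test, p = 0.0357, the smallest possible, adjusted p = 0.0824). Without mice 4 and 5 the difference from 16 to 18 dpp was 27.5 points (exact test, adjusted p = 0.107, 3 against 5 mice), and the unchanged differences from 10 to 12 and from 14 to 16 dpp then had an adjusted p of 0.0794 in the exact test.

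**Figure D2:**
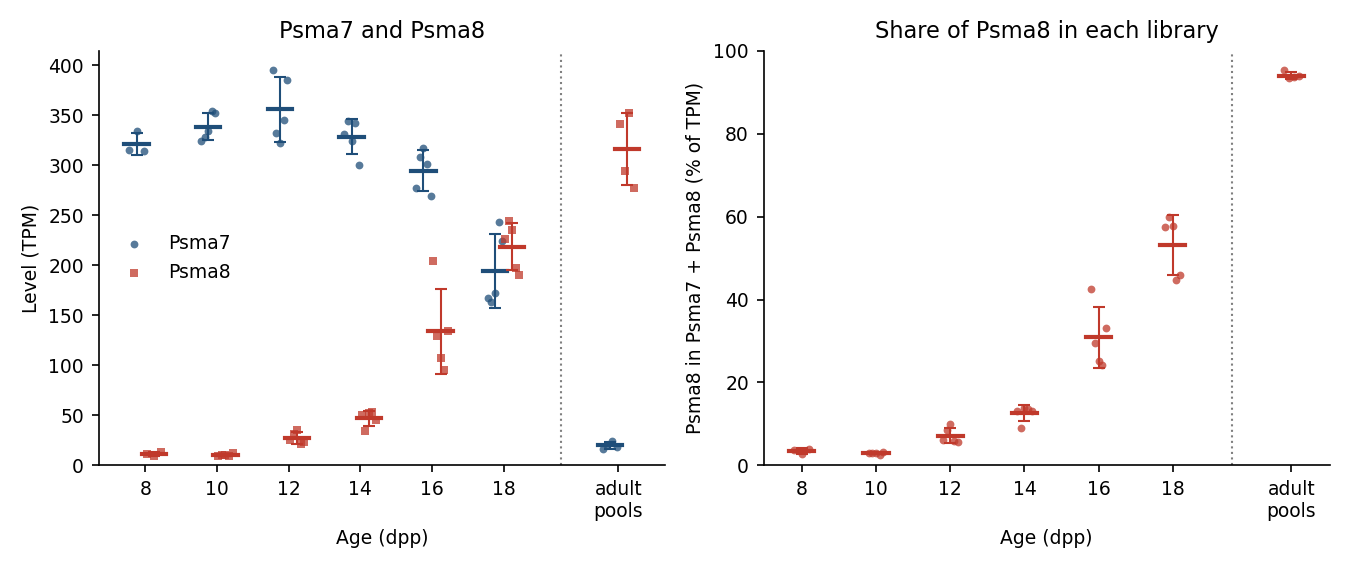
The left panel gives the level of Psma7 and Psma8 in TPM and the right panel the percentage of Psma8 in their sum, by age in dpp, with points for single mice (n = 3 at 8 dpp, 5 at other ages) or adult pools (n = 4, right of the dotted line, scaled separately), lines for means and bars for the SD. The mean share of Psma8 was 3.40% at 8 dpp, 30.9% at 16 dpp, 53.2% at 18 dpp and 94.0% in adult pools.

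The genes whose log2(TPM + 1) over the 28 juvenile mice was most like that of Psma8 were Piwil1, which encodes a protein that binds small RNAs in germ cells, Tcam1, an adhesion molecule of the testis, Zmynd10, a factor for dynein arm assembly, Hspa2, a chaperone of spermatocytes, and Ldhc, the lactate dehydrogenase of the testis. Pearson's r was between 0.995 (Ldhc) and 0.996 (Piwil1), and Spearman's rho between 0.976 (Hspa2) and 0.988 (Tcam1), with age shared by all points. On deviations from the mean of each age, r was 0.872 for Piwil1, 0.862 for Tcam1, 0.824 for Zmynd10, 0.898 for Hspa2 and 0.765 for Ldhc. The genes were chosen on values that include these deviations, so r on the deviations is no separate test. No such r is given for other genes. Piwil1 and Ldhc were also on the pachytene marker list.

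The other alpha subunits, which form the gate of the core, changed less. Of Psma1 to Psma7, 1 rose and 4 fell from 8 to 18 dpp and 2 did not pass the test, and the log2 changes ran from -0.74 (Psma7) to 0.24 (Psma3). Psma2 fell under each scaling (-0.41 ± 0.08 (SE), limma adjusted p = 7.77e-05), while the calls of Psma1 and Psma4 were lost, and Psma4 changed sign, after median-of-ratios rescaling, and that of Psma3 was lost after quantile normalization. Psma5 became a called rise after median-of-ratios rescaling (0.15, limma adjusted p = 0.0267) and Psma6 a called fall after quantile normalization (-0.18, limma adjusted p = 0.0364). The summed level of these 7 subunits was 1467 ± 44.3 TPM at 8 dpp (n = 3), 1240.0 ± 119.9 TPM at 18 dpp (n = 5) and 689 ± 42.5 TPM in adults (n = 4). In adult pools Psma6 was the highest of them at 221 ± 14.7 TPM and Psma7 the lowest. The ratio of the highest to the lowest subunit of the ring had a median of 2.30 over mice of 8 dpp, 1.74 at 18 dpp and 10.7 in adult pools. Group sums and these ratios were chosen after the values were seen.

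The beta subunits without a catalytic site, Psmb1 to Psmb4, all fell from 8 to 18 dpp, with log2 changes from -0.51 (Psmb2) to -0.23 (Psmb4), but after median-of-ratios rescaling those of Psmb3 and Psmb4 no longer passed. Their sum went from 1091 ± 18.5 TPM (n = 3) to 871 ± 109 TPM at 18 dpp (n = 5) and 435 ± 18.4 TPM in adults (n = 4). The catalytic subunits of the standard core, Psmb5, Psmb6 and Psmb7, cleave after hydrophobic, acidic and basic residues, respectively. Psmb5 was at 204 ± 14.6 TPM at 8 dpp and 192 ± 10.3 at 18 dpp (log2 change -0.09 ± 0.07 (SE), limma adjusted p = 0.251), and Psmb7 at 314 ± 10.0 and 296 ± 21.3 TPM (-0.09 ± 0.06 (SE), limma adjusted p = 0.193). Neither passed the test, although Psmb7 did without mice 4 and 5 of 18 dpp (-0.16, limma adjusted p = 0.0174). Psmb6 fell from 326 ± 14.2 to 286 ± 8.33 TPM (-0.19 ± 0.06 (SE), limma adjusted p = 0.00686), a call lost after median-of-ratios rescaling, and relative to the median of all genes the change was -0.10 to 0.06 over the 3 scalings. In adult pools Psmb5, Psmb6 and Psmb7 were at 149 ± 4.05, 285 ± 18.98 and 211 ± 9.86 TPM (n = 4), against 70.9 ± 1.32 for Psmb3 and 58.8 ± 7.05 for Psmb2.

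The immunoproteasome subunits Psmb8, Psmb9 and Psmb10 can replace Psmb5, Psmb6 and Psmb7 and are known from cells that present antigens. Psmb8 measured 3.06, 2.69 and 2.30 TPM at 8 dpp and 2.39, 1.77, 3.17, 4.00 and 6.55 TPM at 18 dpp. Psmb9 measured 2.53, 3.73 and 2.55 TPM at 8 dpp and 2.18, 1.67, 2.20, 2.85 and 1.95 TPM at 18 dpp. The ages overlapped for both genes, which were the lowest of the 47 members in the juvenile gene table at 8 and 18 dpp. The log2 changes were 0.23 ± 0.26 (SE), limma adjusted p = 0.450 for Psmb8, whose sign turned after quantile normalization, and -0.31 ± 0.22 (SE), limma adjusted p = 0.225 for Psmb9, which became a called fall after quantile normalization (-0.61, limma adjusted p = 0.0187). Neither gene thus had a change that held in each fit. Without mouse 5 of 18 dpp alone the change of Psmb8 was 0.0274, and without mice 4 and 5 of 18 dpp it was -0.11. Psmb10 was the most abundant of the 3, at 20.7, 24.3 and 23.9 TPM at 8 dpp and 10.5, 11.8, 9.03, 13.3 and 15.1 TPM at 18 dpp, and it fell, with 5 of 5 mice below all of 8 dpp (-0.91 ± 0.12 (SE), limma adjusted p = 3.72e-07). Its share of Psmb7 and Psmb10 was 6.83 ± 0.723% at 8 dpp (SD, n = 3), 5.40 ± 0.529% at 16 dpp (n = 5), 3.87 ± 0.587% at 18 dpp (n = 5) and 0.820 ± 0.334% in adults (n = 4). From 16 to 18 dpp the share fell by 1.53 points with 5 of 5 mice below all of 16 dpp (exact permutation test, adjusted p = 0.0476), and without mice 4 and 5 by 1.82 points (adjusted p = 0.107, exact test). The share of Psmb8 beside Psmb5 was 1.30 ± 0.259% at 8 dpp and 1.81 ± 0.922% at 18 dpp, and that of Psmb9 beside Psmb6 0.887 ± 0.164% and 0.757 ± 0.170%, with no step between ages past the exact test for either. In adult pools Psmb8, Psmb9 and Psmb10 were at 0.188 ± 0.239, 0.297 ± 0.350 and 1.75 ± 0.773 TPM. Macrophage and leukocyte markers summed to 33.7 TPM at 8 dpp, 96.2 at 16 dpp and 65.4 at 18 dpp. Of the 5 in the juvenile gene table, 4 fell from 16 to 18 dpp (limma, adjusted p under 0.05). Mouse 5 of 18 dpp had the highest sum of its age, at 91.3 TPM. The part of these markers' cells in the levels of the 3 genes was not tested.

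The 6 ATPases of the base, Psmc1 to Psmc6, sit side by side in a ring, yet their transcripts stood farther apart at 18 dpp and in adult pools. Psmc3 measured 231, 234 and 248 TPM at 8 dpp, 222, 203, 219, 238 and 231 TPM at 14 dpp and 328, 271, 257, 247 and 304 TPM at 16 dpp. It measured 569, 579, 536, 359 and 353 TPM at 18 dpp and 1009.7, 1054, 1003 and 1033 TPM in the adult pools. Mice of 8 and 14 dpp overlapped, all mice of 16 dpp lay above those of 14 dpp, and mice 4 and 5 were the lowest of 18 dpp but still above all of 16 dpp. Its log2 change was 0.33 ± 0.11 (SE), limma adjusted p = 0.0256 from 14 to 16 dpp, 0.74 ± 0.11 (SE), limma adjusted p = 5.64e-06 from 16 to 18 dpp and 0.97 ± 0.13 (SE), limma adjusted p = 1.19e-07 from 8 to 18 dpp. Psmc2 measured 115, 109.8 and 108 TPM at 8 dpp, 197, 211, 210.4, 168 and 154 TPM at 18 dpp and 369.7, 346, 358 and 367 TPM in adults. All mice of 18 dpp lay above all of 8 dpp, and the log2 change of Psmc2 was 0.23 ± 0.06 (SE), limma adjusted p = 0.0109 from 14 to 16 dpp and 0.75 ± 0.07 (SE), limma adjusted p = 1.05e-09 from 8 to 18 dpp. Relative to the median of all genes, the change was 1.07 to 1.26 for Psmc3 and 0.84 to 0.93 for Psmc2 over the 3 scalings.

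Psmc4, Psmc5 and Psmc6 did not pass the test from 8 to 18 dpp, with log2 changes of -0.04, -0.09 and -0.17. These were not steady, since Psmc4 became a called rise after median-of-ratios rescaling (0.14, limma adjusted p = 0.0193), Psmc5 and Psmc6 became called falls after quantile normalization (-0.16, limma adjusted p = 0.0224; -0.28, limma adjusted p = 0.00996), and Psmc6 also did without mice 4 and 5 of 18 dpp (-0.31, limma adjusted p = 8.56e-04). Psmc1 fell by 0.17 (limma adjusted p = 0.0102) but changed sign after median-of-ratios rescaling. Psmc5 was also the single member that fell from 10 to 12 dpp (-0.15 ± 0.05 (SE), limma adjusted p = 0.0451), a call lost after quantile normalization and without mouse 1 or 3 of 8 dpp, 1, 2, 3 or 4 of 10 dpp, 2 or 4 of 12 dpp or 1 of 14 dpp (0 members called). The ratio of the highest to the lowest ATPase in a library had medians of 2.13, 1.99, 1.78, 1.92, 2.32 and 5.27 over the 6 ages in order and of 25.7 in adult pools. Mice 1 to 5 of 18 dpp had ratios of 6.38, 5.27, 5.44, 2.96 and 2.74, so mice 4 and 5 were nearer to 16 dpp than the others. In the adult pools Psmc6 was the lowest at 39.8 ± 2.75 TPM and Psmc4 next at 75.8 ± 6.87 TPM, with Psmc5 at 191 ± 5.33 and Psmc1 at 151 ± 8.24 TPM (n = 4). Psmc3 ranked 94 among all genes of the adult table and 1 among the members, where it had ranked 9 at 8 dpp. Exons of Psmc3 overlap those of Slc39a13 on the opposite strand, and the strand of the reads was not stated, so reads of that overlap cannot be told apart.

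**Figure D3:**
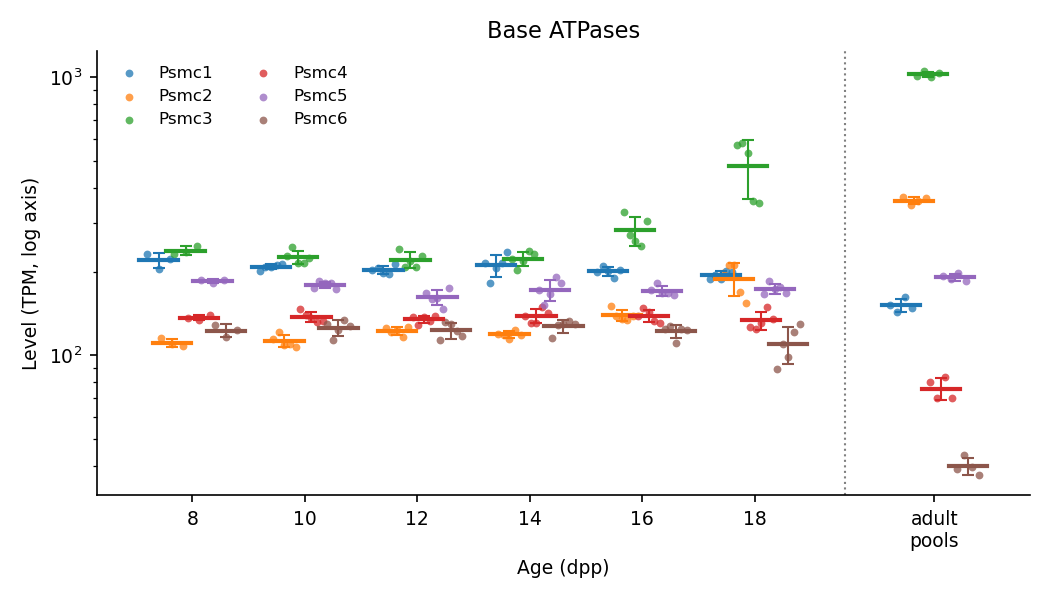
Levels of the 6 base ATPases in TPM on a log axis by age in dpp, with points for single mice (n = 3 at 8 dpp, 5 at other ages) or adult pools (n = 4, right of the dotted line, scaled separately), lines for means and bars for the SD. Psmc3 went from 238 TPM at 8 dpp to 479 at 18 dpp and 1025 in adult pools, and Psmc6 from 123 to 109.6 and 39.8.

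Psmd1 and Psmd2 are the scaffolds of the base and Psmd4 a receptor for ubiquitin. Psmd2 rose from 332 ± 11.3 to 448 ± 16.2 TPM from 8 to 18 dpp (0.43 ± 0.06 (SE), limma adjusted p = 1.14e-07, 5 of 5 mice above all of 8 dpp), and was at 444 ± 3.13 TPM in adults. Psmd1 and Psmd4 did not pass the test, with log2 changes of -0.09 and -0.08. Both became called falls after quantile normalization (-0.20, limma adjusted p = 0.00115; -0.14, limma adjusted p = 0.0304). Of the 8 lid subunits, Psmd6, Psmd8 and Psmd12 rose from 8 to 18 dpp, Psmd3 fell and 4 did not pass, with log2 changes from -0.31 (Psmd3) to 0.46 (Psmd8), and the call of Psmd12 was lost after quantile normalization. Of the 4, Psmd11, Psmd13 and Psmd14 became called rises after median-of-ratios rescaling (0.28, limma adjusted p = 0.00325; 0.28, limma adjusted p = 7.83e-04; 0.25, limma adjusted p = 0.00109). Psmd7, which pairs with the deubiquitinase Psmd14, had a peak in the middle of the series. It was at 207 ± 17.9 TPM at 10 dpp, 266 ± 12.1 at 12 dpp and 203 ± 8.88 at 18 dpp (n = 5 each), rising by 0.36 from 10 to 12 dpp (limma adjusted p = 5.59e-05, 5 of 5 mice above all of 10 dpp) and falling again from 14 to 18 dpp (-0.29 ± 0.06 (SE), limma adjusted p = 9.80e-05), the latter not under each scaling. Psmd12, another lid scaffold, rose from 10 to 12 dpp by 0.18 (limma adjusted p = 0.0174), in 4 of 5 mice above all of 10 dpp.

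Psmd8, a lid subunit, changed in level and in transcript. It measured 200.4, 197 and 198 TPM at 8 dpp, 289, 305, 292, 242 and 244 TPM at 18 dpp and 457, 449.9, 417 and 461 TPM in adults. The 18 dpp mice lay above all mice of 8 dpp (0.46 ± 0.07 (SE), limma adjusted p = 9.37e-07). Transcript usage, the percentage of a gene's TPM in each transcript, was tested for 111 transcripts of 32 members between the mean of 16 and 18 dpp and that of 8 and 10 dpp, and 2 of these transcripts, both of Psmd8, passed (limma, adjusted p under 0.05 with a shift of 20 points or more), beside 2.39% of the 26366 transcripts tested. Its transcripts ENSMUST00000059642 and ENSMUST00000182328 (chromosome 7, minus strand, 29174188 to 29180701 and 29174188 to 29180552, GENCODE M21 on GRCm38) each have 7 exons, of which 6 are identical. They differ in the first exon, where the longer form starts 149 bases further upstream and has its annotated start codon 192 bases, or 64 codons, ahead of that of the shorter form.

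The longer form made up 2.28, 0.867 and 0.748% of Psmd8 at 8 dpp and 4.07, 1.77, 1.65, 0.904 and 2.81% at 10 dpp. It made up 6.35, 7.31, 13.8, 5.20 and 4.75% at 12 dpp and 3.00, 7.99, 3.72, 11.8 and 2.06% at 14 dpp. Mice of 12 and 14 dpp overlapped widely. At 16 dpp the longer form made up 25.1, 13.3, 23.4, 16.8 and 27.5% and at 18 dpp 38.0, 29.95, 41.8, 19.7 and 25.9%. Every mouse of 16 and 18 dpp lay above every mouse of 8 and 10 dpp, and mice of 16 and 18 dpp overlapped. The change between the pairs of ages was 24.4 ± 2.45 percentage points (SE, limma adjusted p = 1.02e-07). These pairs of ages lie in different barcode sets, whose part in the change was not tested. In TPM the longer form went from 2.58 ± 1.72 at 8 dpp (n = 3) to 86.8 ± 31.2 at 18 dpp (n = 5), while the shorter form was at 196 ± 0.447 and 188 ± 17.1 TPM. A transcript table of the adult pools was not analysed here. The Psmd8 promoter window given with the other promoters includes the start of the longer form.

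**Figure D4:**
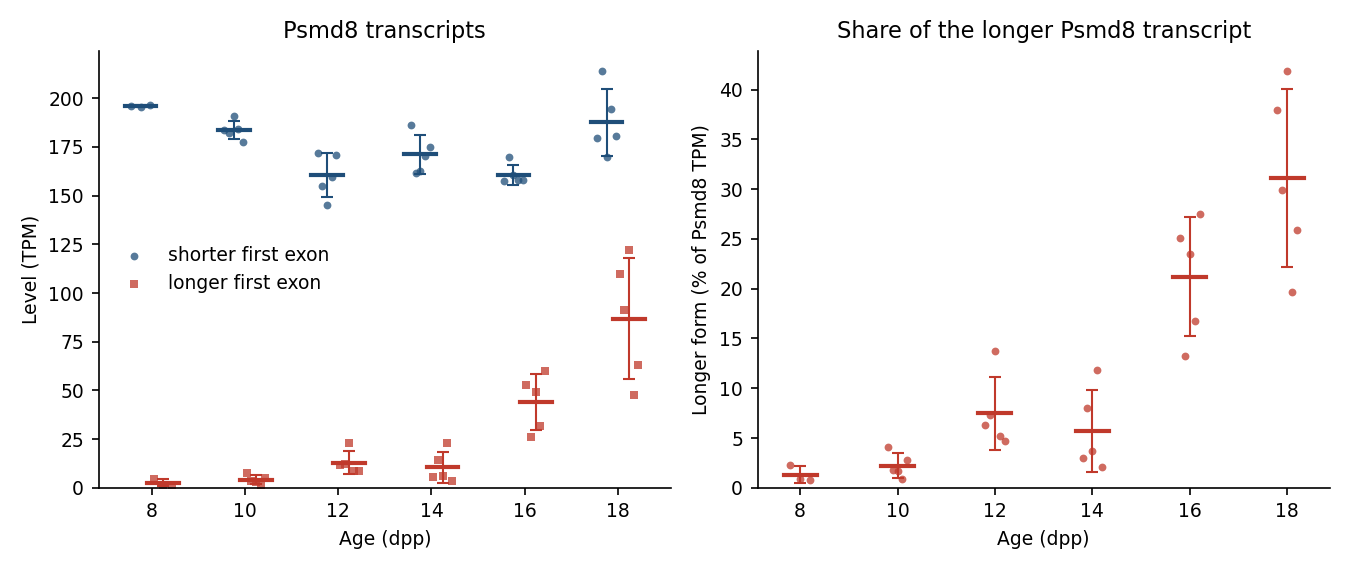
The left panel gives the level of the shorter and the longer Psmd8 transcript in TPM and the right panel the percentage of the longer one, by age in dpp, with points for single mice (n = 3 at 8 dpp, 5 at other ages), lines for means and bars for the SD. The longer form averaged 1.30% in the youngest mice, 5.72% at 14 dpp, 21.2% in the next group and 31.1% in the oldest mice.

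Psmd5, Psmd9 and Psmd10 help to assemble the base and are absent from the finished particle. Psmd5 fell from 67.3 ± 4.27 to 46.8 ± 6.96 TPM between 8 and 18 dpp (-0.52 ± 0.09 (SE), limma adjusted p = 9.93e-06) and was at 16.9 ± 1.08 TPM in adults. Psmd10, also called gankyrin and the only member on the X chromosome, which is silenced in pachytene spermatocytes, measured 27.9, 26.1 and 23.5 TPM at 8 dpp and 13.9, 17.3, 16.1, 23.2 and 23.6 TPM at 18 dpp. The adult pools held 1.53, 2.86, 2.33 and 2.31 TPM of it. A single mouse of 18 dpp overlapped with 8 dpp, the other 4 lay below, and all adult pools lay below all mice. Its log2 change was -0.46 ± 0.14 (SE), limma adjusted p = 0.00428. Psmd9 rose by 0.20 (limma adjusted p = 0.0194), a call lost after quantile normalization and without mice 4 and 5 of 18 dpp (0.14, limma adjusted p = 0.121), as was its rise from 16 to 18 dpp without them (0.11, limma adjusted p = 0.182).

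The activators bind the core in place of the base and lid. Psme1 and Psme2 form a mixed ring that interferon induces, Psme3 forms a ring of its own in the nucleus, and Psme4 binds as a single large protein. Psme4 measured 39.4, 37.4 and 40.1 TPM at 8 dpp, 46.7, 44.6, 46.2, 46.9 and 48.9 TPM at 14 dpp and 71.7, 57.3, 48.0, 53.6 and 62.0 TPM at 16 dpp. It measured 143, 131, 118, 80.4 and 73.4 TPM at 18 dpp and 250.1, 263, 264 and 266 TPM in adult pools. All mice of 18 dpp lay above all of 16 dpp, with mice 4 and 5 the lowest of their age, and the adult pools lay above all mice. The log2 change of Psme4 was 0.85 ± 0.13 (SE), limma adjusted p = 6.51e-06 from 16 to 18 dpp and 1.42 ± 0.15 (SE), limma adjusted p = 2.58e-09 from 8 to 18 dpp, or 1.72 without mice 4 and 5. Relative to the median of all genes it was 1.51 to 1.56 over the 3 scalings. Between ages of the later barcode set, in the fit of all mice, it was 1.16 ± 0.13 (SE), limma adjusted p = 9.89e-09 from 14 to 18 dpp.

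Psme1 measured 177, 186 and 162 TPM at 8 dpp, 92.2, 118, 129, 123 and 107 TPM at 16 dpp and 54.7, 56.4, 58.7, 87.0 and 96.1 TPM at 18 dpp. Adult pools held 5.25, 3.43, 4.70 and 4.12 TPM. Each mouse of 18 dpp lay below all of 8 dpp, and mice 4 and 5 were the highest of their age. The log2 change of Psme1 was -0.71 ± 0.12 (SE), limma adjusted p = 3.21e-05 from 16 to 18 dpp and -1.33 ± 0.14 (SE), limma adjusted p = 4.04e-09 from 8 to 18 dpp, or -1.24 to -1.10 relative to the median of all genes. Psme2 fell from 178 ± 8.55 to 93.1 ± 25.2 TPM (-0.97 ± 0.12 (SE), limma adjusted p = 1.00e-07), with a change of -0.58 ± 0.11 (SE), limma adjusted p = 7.47e-05 in the last step, and was at 5.00 ± 1.55 TPM in adults. Psme3 fell from 141 ± 0.830 to 115 ± 6.86 TPM (-0.29 ± 0.06 (SE), limma adjusted p = 4.48e-05) and was at 59.6 ± 4.97 TPM in adults. The ring-forming activators thus went down while Psme4 went up, and these directions were the same under the 3 scalings. The sum of the 4 activators was 533 ± 20.2 TPM at 8 dpp, 388 ± 23.0 at 18 dpp and 329.8 ± 7.89 in adults. Over the same ages Sertoli markers went from 1753 to 807 TPM and spermatogonial markers from 633 to 266 TPM, and their part in the fall of Psme1 and Psme2 was not tested.

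As a share of the 4 activators, Psme4 made up 7.29, 6.83 and 7.86% at 8 dpp, 10.0, 9.40, 10.3, 10.1 and 10.0% at 14 dpp and 17.6, 13.2, 10.5, 12.3 and 14.6% at 16 dpp. Its share was 37.3, 34.5, 33.0, 20.2 and 17.5% in the mice of 18 dpp and 77.8, 80.5, 77.7 and 80.3% in adult pools. The adult pools were far above every mouse, and 4 of 5 mice of 18 dpp were above all of 16 dpp. The share rose by 3.67 points from 14 to 16 dpp with 5 of 5 mice above all of 14 dpp (exact permutation test, adjusted p = 0.0476). Without mice 4 and 5 of 18 dpp this test no longer passed, at the same difference, nor did it in 25 of the fits that left out single samples. From 16 to 18 dpp the difference was 14.9 points (exact test, adjusted p = 0.0595), and between 8 and 18 dpp it was 21.2 points, or 27.6 without mice 4 and 5.

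**Figure D5:**
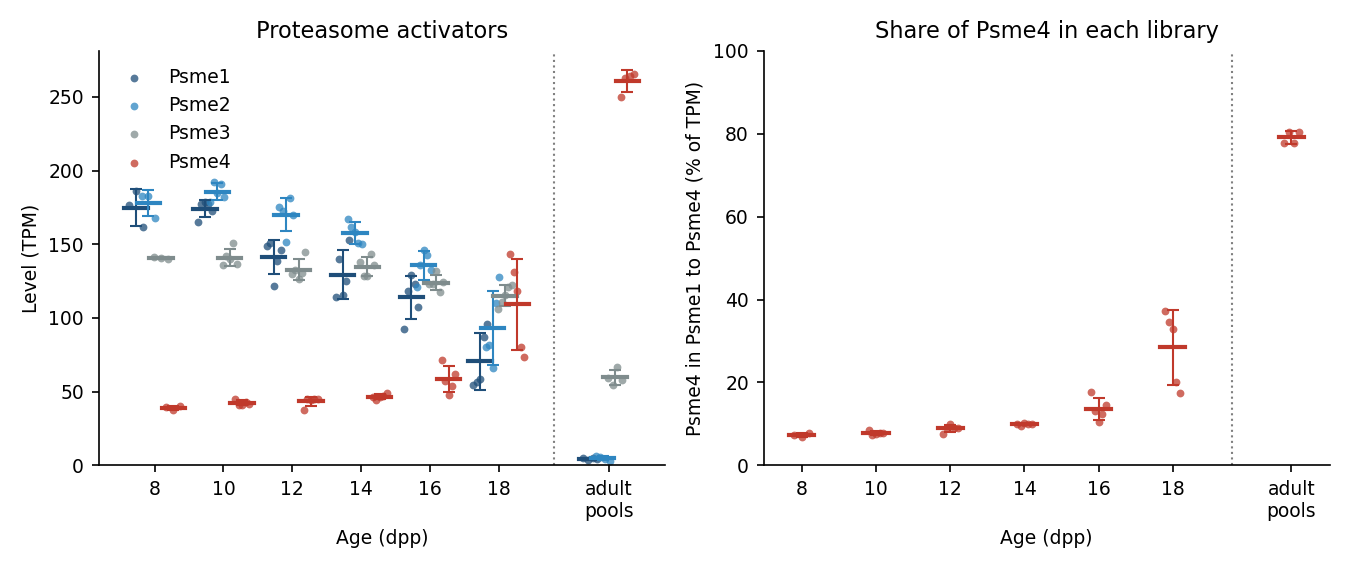
The left panel gives the level of the 4 activators in TPM and the right panel the percentage of Psme4 in their sum, by age in dpp, with points for single mice (n = 3 at 8 dpp, 5 at other ages) or adult pools (n = 4, right of the dotted line, scaled separately), lines for means and bars for the SD. The mean share of Psme4 was 7.33% at 8 dpp, 13.6% at 16 dpp, 28.5% at 18 dpp and 79.1% in adult pools.

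Psmf1, a protein first described as an inhibitor of the core, measured 29.7, 26.1 and 30.2 TPM at 8 dpp, 55.3, 44.8, 52.5, 41.3 and 39.1 TPM at 18 dpp and 116, 105, 116 and 114 TPM in adults. All mice of 18 dpp were above those of 8 dpp (0.67 ± 0.10 (SE), limma adjusted p = 1.80e-06), and the adult pools were above both. Psmg1 to Psmg4 are chaperones that assemble the alpha ring, Psmg1 pairing with Psmg2 and Psmg3 with Psmg4. Psmg1 rose from 60.6 ± 5.16 to 82.2 ± 2.78 TPM between 8 and 18 dpp (0.44 ± 0.07 (SE), limma adjusted p = 1.02e-05) and Psmg2 from 48.5 ± 1.77 to 70.7 ± 4.06 TPM (0.53 ± 0.09 (SE), limma adjusted p = 9.61e-06). The partners in the other pair changed in opposite directions. Psmg3 rose from 15.5 ± 2.03 to 20.8 ± 0.751 TPM (0.41 ± 0.14 (SE), limma adjusted p = 0.00884), a call lost after quantile normalization, whereas Psmg4 fell from 47.8 ± 2.51 to 30.2 ± 6.06 TPM (-0.67 ± 0.12 (SE), limma adjusted p = 1.62e-05). Unlike Psmf1, these chaperones were lower in adult pools than in every mouse of 18 dpp, at 61.6 ± 3.93, 45.2 ± 9.09, 10.2 ± 2.36 and 18.9 ± 1.75 TPM for Psmg1 to Psmg4.

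The members together took a similar part of the RNA at the juvenile ages. Their sum was 7146 ± 83.3 TPM at 8 dpp (n = 3), 6985 ± 235 at 12 dpp (n = 5), 7166 ± 153 at 18 dpp (n = 5) and 6624 ± 113 in adult pools (n = 4), and the ranges of mice overlapped between these juvenile ages. In order of level, Psmb4 (371 TPM), Psmd2 (332 TPM) and Psmb6 (326 TPM) led at 8 dpp, Psmc3 (479 TPM), Psmd2 (448 TPM) and Psmb4 (318 TPM) at 18 dpp, and Psmc3 (1025 TPM), Psmd8 (446 TPM) and Psmd2 (444 TPM) in adults. Psmd2 and Psmb6 at 8 dpp, Psmc3 and Psmd2 at 18 dpp, and Psmd8 and Psmd2 in adults, did not differ beyond their spread, and Psmd2 exceeded Psmc3 in mice 4 and 5 of 18 dpp. Nor did Psmb6 and Psma7 (321 TPM) at 8 dpp, or Psmb4 and the next members, Psmb7 (296 TPM) and Psmb6 (286 TPM), at 18 dpp. Psma8 ranked 45 of 47 at 8 dpp, 10 at 18 dpp and 5 in adults, and Psma7 ranked 4, 14 and 38. Most members that fell in juveniles had a lower level still in adult pools. Of the 18 members that fell from 8 to 18 dpp, 17 were lower in every adult pool than in every mouse of 18 dpp (background 85.8% of all genes that fell) and 1, Psmb6, overlapped. Of the 14 that rose, 6 were higher in every adult pool (Psma8, Psmc2, Psmc3, Psmd8, Psme4 and Psmf1; background 60.9%), 5 overlapped and 3 were lower (background 17.8%). Among the 15 with no call, 10 were lower (background 51.8%), 4 overlapped and 1, Psmd11, was higher (background 7.36%). Being lower in adult pools was thus common among all genes that fell. Spermatid markers also summed to 1023 TPM in adult pools against 4.20 at 18 dpp, and the part of spermatid RNA in the adult levels and shares, those of Psma8 and Psme4 included, was not tested. These tables were scaled separately, and their levels were not tested against each other.

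Other genes of the pathway were taken from a list of 28 that feed, edit or regulate the proteasome, of which 27 were in the juvenile gene table and Paaf1 was not. The largest rise from 8 to 18 dpp was that of Ngly1, which strips sugars from misfolded proteins (1.72 ± 0.15 (SE), limma adjusted p = 9.42e-11), and other rises of the list are not given here. The largest falls were those of Zfand5, an activator of the proteasome (-0.96 ± 0.09 (SE), limma adjusted p = 3.01e-10), Uba1, the main ubiquitin-activating enzyme (-0.94 ± 0.09 (SE), limma adjusted p = 3.12e-10), and Ubqln2, a shuttle for ubiquitinated proteins (-0.80 ± 0.10 (SE), limma adjusted p = 1.24e-07). Uba1 and Ubqln2 lie on the X chromosome.

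Several members have near copies in the genome that could share reads. Transcripts were searched for matches of at least 90% identity over at least 200 bases, a search made after the values were seen. It found 36 matches of 20 members to other genes, 8 of them above 1 TPM at some age or in adults. Among these matches Nek6, Tap1, Sirt3, Gm21972 and Gm26938 are genes whose exons overlap those of the member, not copies elsewhere in the genome. Some matches of Psma2, Psma3, Psmb3, Psmb5, Psmb6, Psmc1, Psmd2 and Psme1 had no expression value, so their levels are unknown. The pseudogene Gm13835 is identical to Psma3 over 438 bases and reached a mean of 131 TPM, so the values of Psma3 are uncertain. A730017L22Rik and Gm14048 resemble Psmd11, Gm6542 resembles Psma4, and Gm21972 shares 305 bases with Psmd1, so these members are uncertain too. Exons of Nek6, Tap1 and Sirt3 overlap those of Psmb7, Psmb9 and Psmd13 on the opposite strand, and Sirt3 stood at 106 TPM in adults. Psma4, Psma5, Psmb8, Psmd1, Psmd3, Psmd9 and Psme1 also overlap exons on the opposite strand, and Psmb5 and Psmg3 on their own strand. Whether the libraries kept strand was not stated, so reads in these overlaps cannot be told apart.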

How the data were processed

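The authors aligned reads with Bowtie 1.0.0 to a set of mouse transcripts on mm10, coding and noncoding, estimated expression with RSEM 1.2.8, and deposited TPM for juvenile transcripts and for adult genes. The deposited juvenile gene table was on another scale than the TPM that the planned tests assumed. It was converted as 2 to the power of the natural log of (value + 1), minus 1, which matched the summed deposited transcript TPM within 0.2 TPM for 20288 genes and not for 80, and for all members within 0.02 TPM. The mice of 14 dpp called 4 and 5 after the sample descriptions bear the numbers 6 and 7 in the sample titles and in the table columns. A column of meiotic substages that holds the authors' own assignments was not used.

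Tests across ages used limma 3.58.1 (R 4.3.3) on log2(TPM + 1) with a trended prior and age as a factor over 28 mice and 20368 genes, each at 3 TPM or more in at least 1 mouse, and Benjamini-Hochberg adjustment over all genes of a contrast. Shares within a library were compared by exact two-sided permutation tests, adjusted over 30 tests. Transcript usage was tested with limma for genes of at least 3 TPM with 2 or more transcripts of at least 1 TPM. The scripts were tested on simulated data. Promoters came from RefSeq (GRCm38.p6), copies from BLAST 2.17.0, and other steps from Python 3.11.15 with matplotlib 3.10.9, scipy 1.17.1, pandas 2.3.3 and numpy 2.4.6. Named in full are Psma7 and Psma8, the catalytic beta subunits, the activators, Psmf1, Psmg1 to Psmg4, members on the X chromosome, the 3 largest rises and falls past the threshold between neighbouring ages and from 8 to 18 dpp, the largest rise and the 3 largest falls of the pathway list, the 5 genes most like Psma8 and members with changed transcript usage. Others named were chosen after their values were seen. The members and lists were chosen with earlier results of these data known. Other pseudocounts, filters, scalings and sample choices were tried as alternatives. Mice are separate animals, and their number limits the precision.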

Additional observations from a re-analysis of the deposited data

Results flagged for a closer look

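In 161 groups of values over the mice of 1 age or the adult pools, 3 held a sample far from the others, while chance flags about 1 in 20 groups, or 8.05 here. Psme4 in mouse 1 of 12 dpp was at 37.5 TPM, with the mice of 12 dpp at 37.5, 45.1, 44.0, 45.1 and 45.1 TPM. The share of Psma8 in mouse 2 of 14 dpp was 9.08%, and the 5 mice of that age were at 13.1, 9.08, 13.8, 13.5 and 13.1%. The longer Psmd8 transcript made up 13.8% in mouse 3 of 12 dpp, above the other mice of that age. Why these samples differed was not tested.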

How the results depend on the processing

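Beside the fits that left out 1 sample, 162 results kept their direction and their side of the threshold, or stayed within 1.5 times for a count, and 39 did not. The numbers of members that rose or fell from 8 to 18 dpp stayed within 1.5 times and Psma8 and Psme4 kept their direction under each alternative, except that 12 against 8 dpp within a barcode set gave 4 rising and 7 falling. With a pseudocount of 3, 0 members rose from 12 to 14 dpp. With no filter on low values 0 fell from 10 to 12 dpp, 0 rose from 12 to 14 dpp and 2 rose from 14 to 16 dpp. Median-of-ratios rescaling gave 3 falling from 10 to 12 dpp, 0 rising from 12 to 14 dpp, and 22 rising and 4 falling from 16 to 18 dpp. Quantile normalization gave 0 falling from 10 to 12 dpp, 0 rising from 12 to 14 dpp, 2 falling from 14 to 16 dpp, and 7 rising and 25 falling from 16 to 18 dpp, and the log2 change of Psmb8 from 8 to 18 dpp was -0.0436. With 1 prior variance for all genes 0 fell from 10 to 12 dpp and 0 rose from 12 to 14 dpp. Mice 1 to 3 of each age gave 2 rising and 0 falling from 10 to 12 dpp, 0 rising from 12 to 14 dpp, 7 rising and 1 falling from 14 to 16 dpp, 20 falling from 16 to 18 dpp and -0.112 for Psmb8. A fit of only the 2 ages compared gave 4 falling from 10 to 12 dpp, 0 rising from 12 to 14 dpp and 1 falling from 14 to 16 dpp. A fit within the barcode set gave 4 falling from 10 to 12 dpp and 1 rising from 14 to 16 dpp. In all these the cause was not tested. The counts of 0 are from limma.

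Without mice 4 and 5 of 18 dpp, chosen after seeing the data as were 12 against 8 and 18 against 14 dpp, 20 members fell from 16 to 18 dpp, the change of Psmb8 was -0.112 and its share changed by -0.0568 points. The share tests then no longer passed for Psma8 from 10 to 12 (4.27 points), 14 to 16 (18.4) and 16 to 18 dpp (27.5). Nor did they for Psmb10 from 16 to 18 dpp (-1.82) and Psme4 from 14 to 16 dpp (3.67). Fewer mice allow fewer permutations in the tests with 18 dpp. The tests from 10 to 12 and 14 to 16 dpp kept their mice, and only their adjustment over the share tests changed.

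Mouse numbers did not pair the samples: deviations from the age means correlated with a median r of 0.0137 over 65 pairs of the same number, and 3 pairs were over 0.1. With mouse number as a replicate block 0 members fell from 10 to 12 dpp, and no other call or count moved by over 1.5 times (13 rising and 19 falling from 8 to 18 dpp).

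Leaving out 1 sample at a time gave 31 to 35 members differing among ages, 13 to 14 rising and 16 to 20 falling from 8 to 18 dpp, 3 to 5 rising from 10 to 12 dpp and 10 to 17 falling from 16 to 18 dpp. Falls from 10 to 12 dpp numbered 0 to 3: 0 without mouse 1 or 3 of 8 dpp, 1, 2, 3 or 4 of 10 dpp, 2 or 4 of 12 dpp or 1 of 14 dpp, 3 without mouse 1 of 12 dpp and 2 without mouse 5 of 18 dpp. Rises from 12 to 14 dpp numbered 0 to 1, with 0 without mouse 2 of 10 dpp, 1, 4 or 5 of 12 dpp or 1, 3, 4 or 5 of 14 dpp. From 14 to 16 dpp 2 to 6 rose, with 2 without mouse 2 of 14 dpp or 1 or 5 of 16 dpp, and 0 to 2 fell, with 1 without mouse 1 of 14 dpp and 2 without mouse 3 of 16 dpp. From 16 to 18 dpp 7 to 11 rose, with 7 without mouse 4 of 16 dpp. Share changes for Psma8 were 3.59 to 4.64, 15.5 to 20.05 and 20.6 to 25.2 points from 10 to 12, 14 to 16 and 16 to 18 dpp. They were -1.72 to -1.31 for Psmb10 from 16 to 18 dpp and 2.69 to 4.44 for Psme4 from 14 to 16 dpp. Each of these changes lost its threshold in 25 of these fits. A fit without a mouse of the ages compared allows fewer permutations. In the other fits only the adjustment over the share tests changed. From 8 to 18 dpp the share changes were 0.132 to 0.715 points for Psmb8 and -0.198 to -0.0353 for Psmb9, and the log2 change of Psmb8 was 0.0274 to 0.389, with the lowest values for Psmb8 without mouse 5 of 18 dpp. Depth is unknown, so what it limits for Psmb8 and Psmb9 could not be set.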
